A study of Homo sapiens with 6 samples.

Results

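Dense clusters of cohesin were defined as stretches in which 4 or more peaks of the control SMC1 list lay close together. Autosomal peaks of that list were joined where the gap to the next peak was 12500 bp or less. The joining gave 11322 stretches, of which 229 held 4 or more peaks and are the clusters described here. They held 1112 of the 14703 autosomal control SMC1 peaks (7.56%). The clusters were chosen by their control SMC1 counts, so every control SMC1 value below describes the choice and is not a finding about it. At the limit of the choice stood 128 stretches with 4 peaks just inside and 453 stretches with 3 peaks just outside, with a median span of 18843 and 12669 bp, respectively.

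The peaks came from CUT&Tag, in which an antibody brings a transposase to chromatin and the DNA cut there is sequenced. IMR90 cells, a line of normal human lung fibroblasts, were profiled with antibodies against SMC1 and CTCF in 3 conditions, to ask how chromatin architecture after treatment compares with that of senescent cells. The conditions were low-passage proliferating cells, low-passage cells exposed to inflachromene (ICM), which binds the chromatin proteins HMGB1 and HMGB2, and high-passage cells taken as senescent by replication. There was 1 library per antibody and condition. For SMC1 the titles carry p16 for control, p16 for ICM and p34 for senescent cells. For CTCF they carry p21, p16 and p34, and 6 days of ICM are named in the CTCF title alone. All groups came from a single line, and no genetic change is named. With 1 library per group there was no replicate spread and no difference between conditions could be tested. Passage cannot be told apart from condition for the senescent libraries, nor for CTCF between control and ICM.

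Cohesin is a ring-shaped complex of SMC1, SMC3 and RAD21 with a STAG subunit. It is loaded onto chromatin, often at active promoters and enhancers, and extrudes loops of DNA until it meets CTCF, a zinc-finger protein that binds DNA in an orientation-dependent way and holds the ring at loop anchors. Stretches with several cohesin peaks can therefore contain promoters, enhancers and CTCF sites side by side. Genes with many neighbouring enhancers are often those that define a cell type or that respond to signals.

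Promoter sequence is shown for 3 genes whose start lies in a cluster, because they carried the different patterns of occupancy described below. SOCS3 had SMC1 and CTCF peaks over its promoter in all 6 lists, ANXA2 had SMC1 peaks in control and ICM-treated cells alone, and H1-1 had an SMC1 peak in control cells alone. The sequences are RefSeq promoters on GRCh38.p14, from 250 bases before to 50 bases after the gene start, at chr17:78360876-78361175, chr15:60397937-60398236 and chr6:26017738-26018037, all on the minus strand and written 5′ to 3′ along the gene. Capitals mark a match to the core of the CTCF motif (AGNGGGCGC, searched on both strands) in SOCS3 and H1-1, and to the AP-1 site (TGANTCA, the same on both strands) in ANXA2.
SOCS3: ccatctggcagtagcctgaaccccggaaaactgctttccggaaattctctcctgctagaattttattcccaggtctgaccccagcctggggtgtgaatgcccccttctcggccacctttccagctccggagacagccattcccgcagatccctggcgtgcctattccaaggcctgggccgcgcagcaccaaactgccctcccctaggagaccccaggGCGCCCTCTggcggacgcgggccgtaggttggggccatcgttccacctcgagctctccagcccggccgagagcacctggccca
ANXA2: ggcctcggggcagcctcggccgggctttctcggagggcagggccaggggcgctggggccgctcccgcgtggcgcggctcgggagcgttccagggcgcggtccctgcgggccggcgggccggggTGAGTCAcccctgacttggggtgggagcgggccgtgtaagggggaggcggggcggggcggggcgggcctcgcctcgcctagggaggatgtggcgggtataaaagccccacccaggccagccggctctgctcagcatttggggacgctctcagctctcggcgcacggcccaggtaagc
H1-1: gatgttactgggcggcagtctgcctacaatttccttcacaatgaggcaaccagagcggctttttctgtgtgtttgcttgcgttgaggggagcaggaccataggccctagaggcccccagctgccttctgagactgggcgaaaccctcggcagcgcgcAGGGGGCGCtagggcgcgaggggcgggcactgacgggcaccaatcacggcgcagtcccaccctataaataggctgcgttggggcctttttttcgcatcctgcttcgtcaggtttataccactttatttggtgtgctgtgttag

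RefSeq promoter windows of this length were at hand for 241 genes whose RefSeq promoter lies in a cluster. That promoter can lie inside the gene, so these are not a subset of the genes counted below by their outermost 5′ end. A control SMC1 peak lay over 82.6% of them, an ICM peak over 70.1% and a senescent peak over 59.3%. Among all 15101 such windows the shares were 34.1%, 29.4% and 24.1%, but clusters were chosen for control SMC1 peaks. Among cluster windows with a control SMC1 peak, ICM peaks lay over 81.4% and senescent peaks over 70.4%. Outside clusters, windows with a control SMC1 peak had 77.2% and 62.3%. All 3 SMC1 lists had a peak over 127 of the 241 windows (52.7%, 95% interval 46.2 to 59.1%), as at SOCS3. Control and ICM peaks without a senescent peak, as at ANXA2, were found over 35 windows, control peaks alone, as at H1-1, over 24, and no SMC1 peak over 33. CTCF peaks of the control, ICM and senescent lists lay over 36.5%, 47.3% and 33.6% of the cluster windows, against 10.7%, 15.4% and 10.6% of all windows. Among windows with a control SMC1 peak, the shares were 41.2%, 54.3% and 39.7% in clusters and 25.1%, 35.9% and 24.4% outside. In the cluster windows all 6 lists had a peak over 61 windows (25.3%). Matches to the CTCF core stood in 7.05% of cluster windows and in 5.60% of all windows, and matches to the AP-1 site in 7.05% and 5.70%. The H1-1 window holds a CTCF core match and no CTCF peak of any list.

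The clusters spanned 5884 to 67357 bp with a median of 22542 bp, 5.54 Mb in all. Control peaks covered 8.61% to 70.8% of a cluster, with a median of 22.5%. The gap between neighbouring peaks had a median of 4119 bp, and 157 of the 883 gaps were under 1 kb. There were 52 clusters with 5 peaks, 28 with 6, 8 with 7, 5 with 8, 5 with 9, 2 with 10 and 1 with 11. Peaks of a cluster had a median width of 997.5 bp, against 926 bp for stretches of 2 or 3 peaks and 894 bp for single peaks. The clusters were spread unevenly over the genome. Chromosome 1 held 30, chromosome 17 held 27, chromosome 11 held 22, chromosome 19 held 21 and chromosome 16 held 16, while chromosome 13 held 1 and chromosome 18 none. On chromosome 17 the clusters took 16.8% of all control SMC1 peaks, against 1.83% on chromosome 4.

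The cluster with most control SMC1 peaks lay over COL1A1, which encodes the alpha-1 chain of type I collagen, the main product of fibroblasts. It ran over chr17:50147779-50211254 (hg38) and also covered SGCA, which encodes a sarcoglycan, and the start of PPP1R9B, which encodes the actin-binding scaffold spinophilin. SMC1 peaks numbered 11 in control, 9 after ICM and 10 in senescent cells. CTCF peaks numbered 7, 7 and 9, more than in any other of the 229 clusters in each list. Most of its SMC1 summits differed between lists. A peak was called shared when 100 bp windows on the summits, the midpoints of the regions of highest signal, overlapped. By that rule 3 of the 11 control peaks were shared with the ICM list and 3 with the senescent list, whereas 8 and 9 of them overlapped a peak of the other list anywhere. The outermost control peak upstream of COL1A1 had the highest total signal of the 11 (percentile 99.7 of its list) and was shared with the ICM list, and CTCF summits of all 3 conditions lay at the same place.

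**Figure D1:**
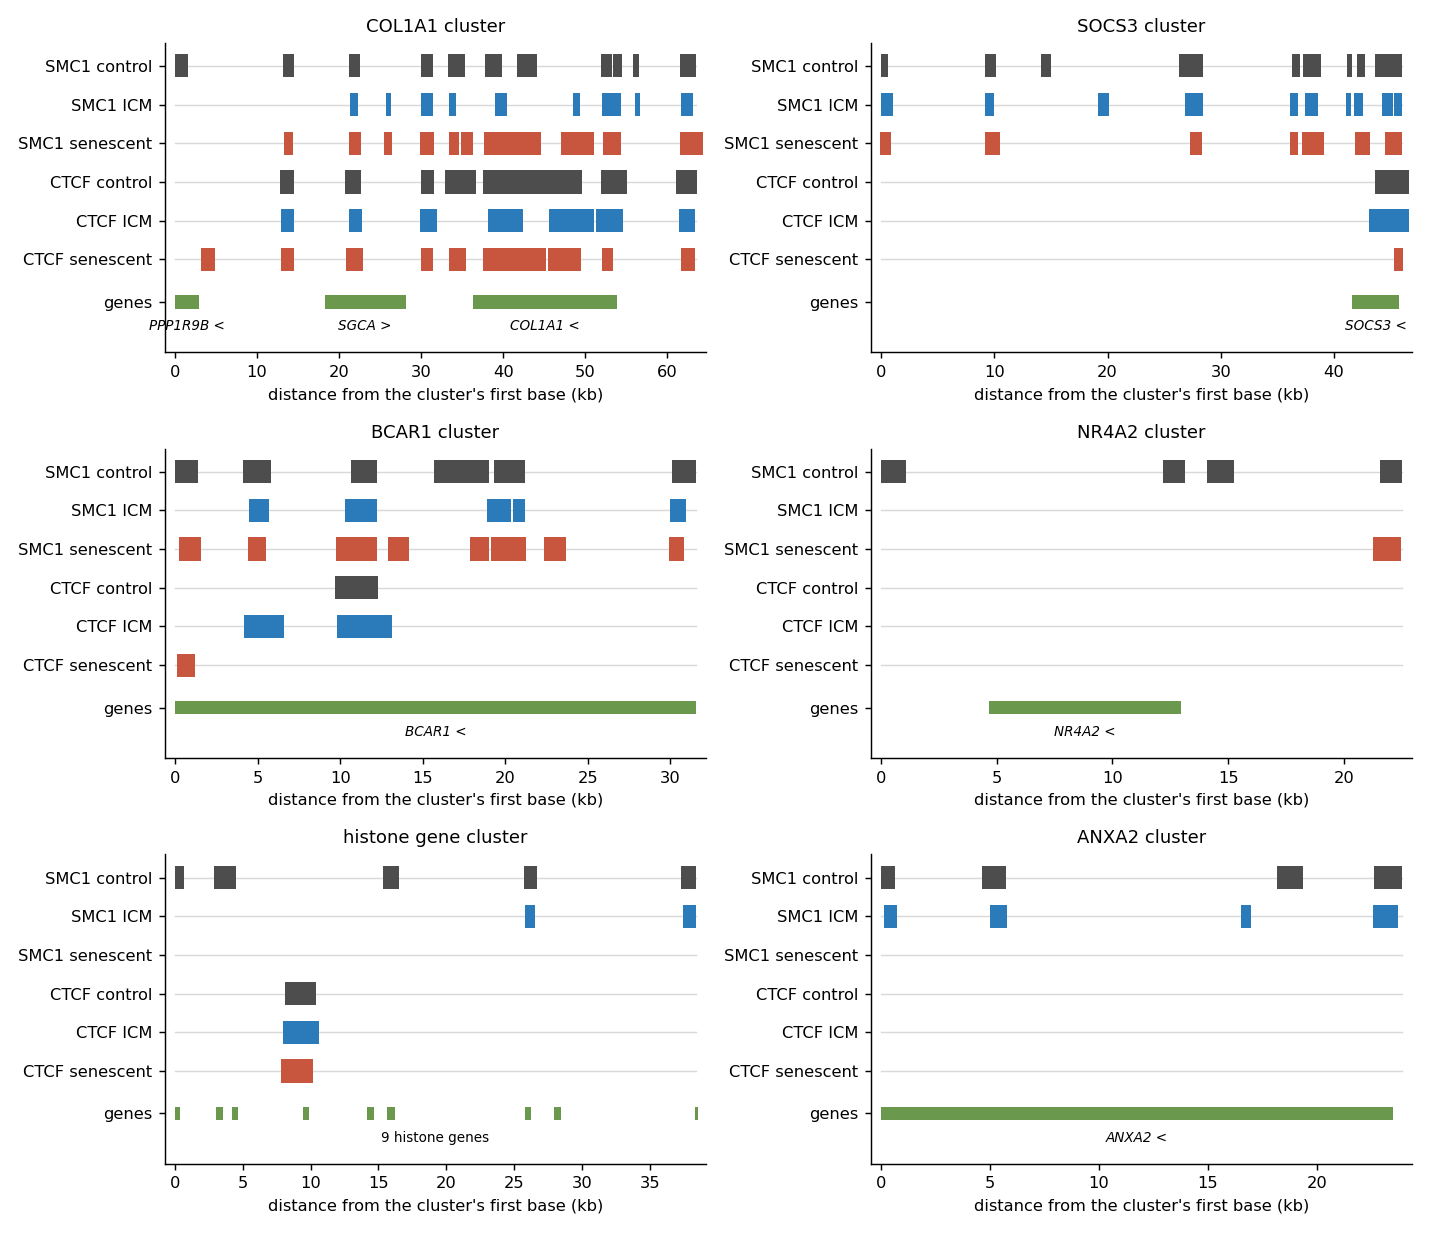
Peaks of the 6 lists over 6 dense clusters, with position in kb from the cluster's first base and a bar for each peak whose summit lies inside. Grey bars are control, blue ICM and red senescent peaks, green bars are protein-coding genes, and an arrowhead gives the direction of transcription. The NR4A2 cluster has no ICM SMC1 peak, the histone and ANXA2 clusters have no senescent SMC1 peak, and BCAR1 has 8 senescent peaks against 6 in control.

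The other clusters among the 10 with the highest control counts had 6 to 10 SMC1 peaks in each of the other lists. MALAT1, an abundant nuclear non-coding RNA, lay in a cluster on chromosome 11 with 10, 10 and 7 SMC1 peaks in control, ICM and senescent cells. The cluster over MIDN, CIRBP, FAM174C and ATP5F1D on chromosome 19 had 10, 8 and 7. CIRBP encodes a cold-inducible RNA-binding protein and ATP5F1D a subunit of ATP synthase. The cluster over MRPS23, a protein of the mitochondrial ribosome, and CUEDC1 had 9, 9 and 10. BCL9L, a coactivator of Wnt signalling, had 9 in each list, and control peaks covered 58.1% of its 22493 bp. SOCS3, a feedback inhibitor of cytokine signalling, had 9, 10 and 7. The cluster over ARHGEF17, a guanine nucleotide exchange factor, and P2RY6, a nucleotide receptor, had 9, 7 and 7.

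The remaining 3 of these 10 also had fewer peaks in both other lists than in control. NUAK2, a kinase related to AMPK, shared a cluster with TMCC2 in which 9 control peaks stood beside 6 ICM and 6 senescent peaks. LMNA, which encodes lamins A and C of the nuclear lamina, had 8, 7 and 7. ERGIC1, a membrane protein of the early secretory pathway, had 8, 7 and 6. The outermost 5′ ends of LMNA and ERGIC1 lay outside their clusters.

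Over all 229 clusters there were 988 SMC1 peaks in the ICM list and 812 in the senescent list, or 0.888 and 0.730 per control peak. The whole lists stood at 1.20 and 0.872 per control peak, so both values in the clusters lay below the ratio of the list lengths. The same held for stretches of 2 or 3 control peaks, with 0.861 and 0.666, and for single peaks, with 0.804 and 0.592, all of which were likewise selected on control peaks. The clusters held 8.22% of the control list's total signal, 6.73% of the ICM list's and 7.47% of the senescent list's.

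An ICM SMC1 peak was found in 227 of the 229 clusters and a senescent one in 224, where 83.0% and 65.0% of all joined stretches held one. A cluster is longer than most stretches and offers more places for a peak. There were 4 or more ICM peaks in 161 clusters (70.3%, 95% interval 63.9 to 76.1%) and 4 or more senescent peaks in 106 (46.3%, 39.7 to 53.0%). All 3 lists had 4 or more in 99 clusters, ICM without senescent in 62, senescent without ICM in 7 and neither in 61. Compared with control, the ICM list had fewer peaks in 115 clusters, the same number in 84 and more in 30. The senescent list had fewer in 174, the same number in 39 and more in 16. Choosing clusters by control counts lowers the other counts relative to control. The excess of clusters with fewer peaks is therefore not read as a loss.

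This order of ICM above senescent depended on the length of the lists. When the SMC1 lists were brought to the length of the senescent list, 12828 peaks, by total signal, the clusters found anew had 0.778 ICM peaks per control peak, and the ICM value minus the senescent one was -0.0024. The share of clusters with 4 or more peaks was then 55.6% in both. By highest signal that difference turned to -4.0 percentage points, from 24.0 with complete lists.

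**Figure D2:**
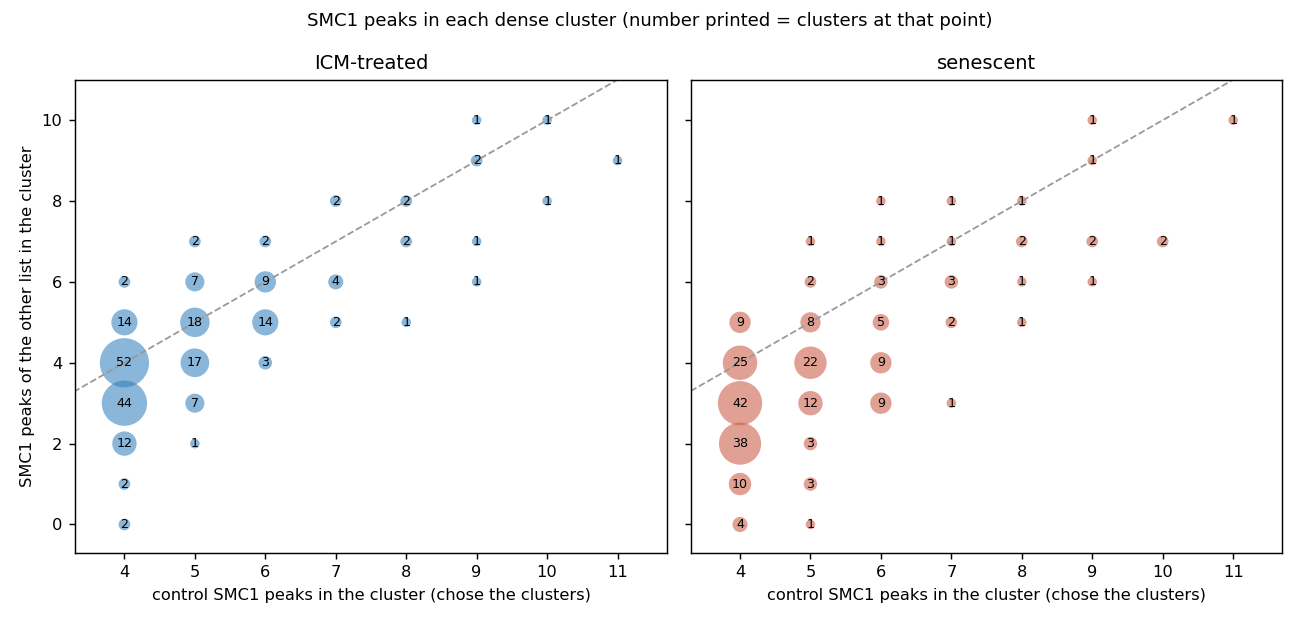
SMC1 peaks in each of the 229 clusters, with the control number on the x axis and the ICM (left) or senescent (right) number on the y axis. Circles grow with the number of clusters, which is printed in them, and the dashed line marks equal numbers. Most clusters lie on or below the line, 199 for ICM and 213 for senescent cells. The control numbers chose the clusters, which favours points below the line.

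The positions of single peaks inside the clusters were compared next. Of the 1112 control peaks, 709 were shared with the ICM list (63.8%, 60.9 to 66.6%) and 480 with the senescent list (43.2%, 40.2 to 46.1%). Among all 14703 control peaks 65.3% and 42.5% were shared, so the share in clusters lay near that of the list as a whole. Both lists shared 34.6% of cluster peaks and neither shared 27.7%. The ICM share stayed above the senescent share in all alternatives tried, including lists of equal length, with differences between 12.2 and 24.4 percentage points. Cluster peaks present in all 3 lists had a median total signal at percentile 73.5 of the control list, against 39.6 for those in the control list alone.

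Peaks with CTCF were shared more often. A control CTCF summit lay at 183 of the cluster peaks (16.5%), close to the 15.4% of all control SMC1 peaks. Of these 183, 78.7% were shared with the ICM list (72.0 to 84.4%) and 67.2% with the senescent list (59.9 to 74.0%). Of the 929 cluster peaks without CTCF, 60.8% (57.6 to 64.0%) and 38.4% (35.3 to 41.6%) were shared. Single peaks outside clusters had similar values, 77.4% and 62.2% with CTCF and 62.7% and 38.3% without. The intervals cover counting error alone, treat neighbouring peaks as independent and hold nothing on the spread between cultures.

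**Figure D3:**
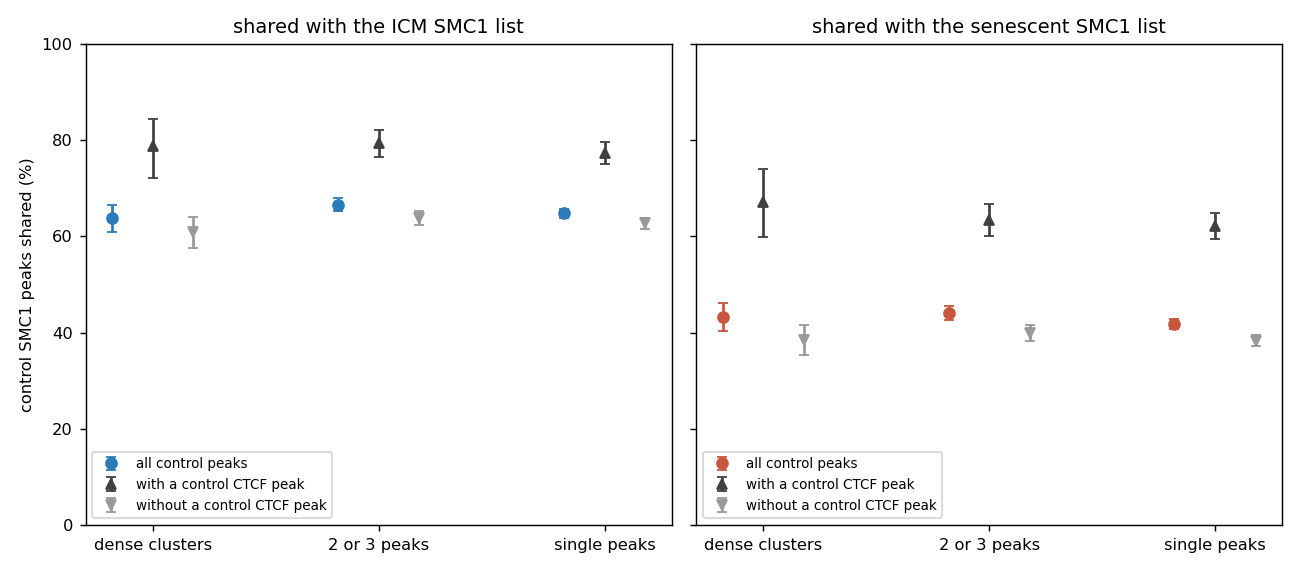
Share of control SMC1 peaks (percent, y axis) that the ICM (left) and senescent (right) SMC1 lists shared, for dense clusters, stretches of 2 or 3 peaks and single peaks. Circles are all control peaks, upward triangles those with a control CTCF peak and downward triangles those without, and bars are exact 95% intervals. In clusters the values with and without CTCF are 78.7% and 60.8% for ICM and 67.2% and 38.4% for senescent cells.

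Fewer of the cluster peaks lay at promoters, counted here only at the outermost 5′ end of each gene. Starts inside a gene were missed, as at PRDM1, whose RefSeq promoter window lay in a cluster under a control SMC1 peak. A summit no more than 1 kb from a protein-coding 5′ end was found for 233 cluster peaks (20.95%, 18.6 to 23.5%), for 27.6% of peaks in stretches of 2 or 3, for 41.7% of single peaks and for 35.8% of all control peaks. Promoter peaks of clusters were shared with the ICM list in 58.8% and with the senescent list in 41.2%, and the other cluster peaks in 65.1% and 43.7%. The intervals of promoter and other peaks overlapped in both lists.

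CTCF, which played no part in choosing the clusters, had at least 1 summit in 165 of them in control (72.1%), in 184 after ICM (80.3%) and in 180 in senescent cells (78.6%). Among all joined stretches the shares were 27.1%, 35.2% and 33.8%. The autosomal CTCF lists differed in length, with 4606, 6635 and 8478 peaks. In lists of equal length by total signal the order turned, with CTCF in 77.8% of clusters in control, 76.0% after ICM and 70.8% in senescent cells, and by highest signal it was 75.3%, 72.0% and 61.3%. The SMC1 lists were cut as well and the clusters found anew. These shares are therefore of 171 and 150 clusters, not of the clusters of the complete lists. Clusters are longer than the other stretches, and the share was higher with each added control peak from single peaks to stretches of 6 or more, with overlapping intervals for neighbouring sizes from 3 peaks upward. The clusters had 53.4, 66.6 and 67.9 CTCF peaks per Mb in control, ICM and senescent cells, against 69.4, 87.0 and 90.6 per Mb in stretches of 2 or 3 peaks. Joining adds gaps to longer stretches, which lowers any such density. Control SMC1 peaks, which chose the clusters, likewise stood at 201 per Mb in clusters and 263 in stretches of 2 or 3. Density per Mb therefore cannot tell whether clusters are richer in CTCF. Per control SMC1 peak the control values were 0.266 and 0.263.

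**Figure D4:**
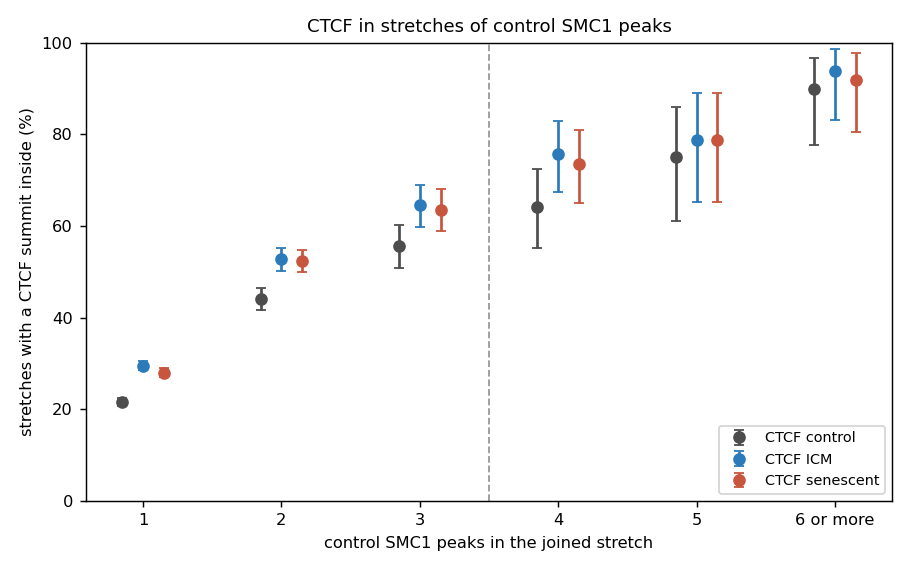
Share of joined stretches with a CTCF summit inside (percent, y axis) by their number of control SMC1 peaks (x axis). Points are the control, ICM and senescent CTCF lists with exact 95% intervals, and clusters lie right of the dashed line. The control share goes from 21.6% for single peaks to 89.8% for stretches of 6 or more.

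The number of CTCF peaks differed between the 3 CTCF lists in 132 clusters. Of the 191 clusters with a CTCF summit in any list, 59 had the same number in all 3. The clusters held 296 CTCF peaks in control, 369 after ICM and 376 in senescent cells. Of the 64 clusters without a control CTCF summit, 21 had one after ICM and 18 in senescent cells. Among the 165 with one, 2 had none after ICM and 3 had none in senescent cells. These counts are of the complete lists, in which control is the shortest, and the order of the conditions turned at equal length as given above. LMNA followed COL1A1 with 5, 6 and 5 CTCF peaks in control, ICM and senescent cells. The cluster over GNAI2, an inhibitory G protein subunit, and SEMA3B, a secreted semaphorin, had 5, 5 and 6 with 8 SMC1 peaks in each list. MIDN and its neighbours had 5 in each list, and the cluster over PDLIM2 and SORBS3, both of the actin cytoskeleton, had 5, 4 and 5.

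No CTCF summit of any list lay in 38 clusters (16.6%), and all 3 lists had one in 160 (69.9%). Clusters without CTCF had a median span of 19595.5 bp, against 23761.5 bp for those with CTCF in all 3 lists. They held 169 control, 150 ICM and 98 senescent SMC1 peaks, or 0.888 and 0.580 per control peak. Clusters with CTCF in all lists held 809, 720 and 629, or 0.890 and 0.778 per control peak. The senescent value was thus lower in clusters without CTCF, while the ICM values lay close together. The difference was not tested. A gene start lay in 34.2% of clusters without CTCF and in 71.2% of those with CTCF in all lists. Among clusters without CTCF were those over MICAL2, an oxidase that acts on actin, with 6, 5 and 5 SMC1 peaks, and over IER5, an immediate early gene, with 5, 3 and 3. Both were named after their values were seen.

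The lowest ICM counts relative to control were found over 5 clusters chosen by that ratio. NR4A2, an orphan nuclear receptor of the immediate early class, had 4 control peaks, none after ICM and 1 in senescent cells. Its 4 control peaks had total signals at percentiles 29.7 to 47.2 of the list, and 1 of them lay 18 bp from the 5′ end. SREBF1, a master regulator of lipid synthesis whose intron carries MIR33B, had 4, 0 and 2. CDKN1C, which encodes the cyclin-dependent kinase inhibitor p57, had 4, 1 and 2 within 7609 bp. ZFP36L1, which promotes decay of AU-rich messenger RNAs, also had 4, 1 and 2. Control peaks at SREBF1, CDKN1C and ZFP36L1 had total signals at percentiles 3.63 to 43.5, 16.6 to 74.6 and 32.5 to 77.8. A cluster over 9 histone genes on chromosome 6 had 5, 2 and 0. NR4A2 had no CTCF peak in any list, and the other 4 clusters had 1 CTCF peak in each list, except 2 in senescent cells at CDKN1C.

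The histone cluster ran over chr6:26017431-26055827 and contains genes for H1, H2A, H2B, H3 and H4, which are expressed in S phase. Of its 5 control peaks 4 lay at promoters, at H1-1 (summit at -36 bp from the gene start), H4C1, H2AC4 and H2BC3. The H2BC3 peak and the peak near H1-2 were shared with the ICM list, and none was shared with the senescent list. A CTCF peak between the H4C1 and H2AC4 peaks was present in all 3 CTCF lists. The H1-1 promoter printed above lay under the first of these control peaks.

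Among the clusters chosen for the highest ICM counts relative to control, the cluster at LIN37, a subunit of the DREAM repressor, and PSENEN, a subunit of gamma-secretase, had 4, 6 and 4 SMC1 peaks in control, ICM and senescent cells. RGS3, a regulator of G protein signalling, had 5, 7 and 6, with control peaks 134319 to 155196 bp from its outermost 5′ end. A cluster without a protein-coding gene at chr1:234961813-234997947, over LNCATV, had 5, 7 and 4 and no CTCF peak. Another on chromosome 1, over C1orf220, had 4, 5 and 4. In the LIN37 and LNCATV clusters more than 1 ICM peak overlapped a single control peak, so part of the higher count was a split peak. At RGS3 more than 1 senescent peak did so.

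No senescent SMC1 peak was found in 5 clusters, the histone cluster being 1 of them. ANXA2, which encodes a calcium-dependent membrane-binding protein, had 4 control and 4 ICM peaks without a senescent peak. Of its control peaks 2 were shared with the ICM list by their summits, 1 of them at the promoter printed above. PRKCH, a protein kinase C, and PRDM1, a transcriptional repressor known for its part in plasma cells, had 4 control and 3 ICM peaks each. The control peaks at PRKCH lay inside the gene, 274563 to 282932 bp from its outermost 5′ end. The cluster over REXO1 and KLF16 had 4 and 2. Total signals of the control peaks lay at percentiles 18.2 to 24.5 of the list at REXO1 and 0.088 to 55.1 at PRDM1. They lay at 17.1 to 59.3 at PRKCH, 26.7 to 70.8 at ANXA2 and 3.63 to 74.8 in the histone cluster. ANXA2 and PRDM1 had no CTCF peak in any list, PRKCH had 1 after ICM alone, and REXO1 had 1, 1 and 2.

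Of the clusters chosen for the highest senescent counts relative to control, the first had 5 control, 6 ICM and 7 senescent peaks. This cluster of 39698 bp overlapped CCR7, a chemokine receptor of lymphocytes, only from 32.5 kb after its first base. The start of CCR7 lay outside. BCAR1, the adaptor p130Cas of integrin signalling, had 6, 5 and 8. By summits only 2 of its 6 control peaks were shared with the ICM list and 1 with the senescent list, whereas 5 and 6 overlapped a peak of those lists. CPA5, a carboxypeptidase, had 4, 5 and 5 without CTCF. The outermost 5′ ends of BCAR1 and CPA5 lay outside their clusters. The non-coding gene SCIRT on chromosome 6 also had 4, 5 and 5, and ADAMTSL4, a protein of microfibrils, had 4, 4 and 5. At SCIRT 2 ICM peaks and 2 senescent peaks overlapped a single control peak. The longest cluster, 67357 bp on chromosome 19 over ERCC1, RTN2, FOSB and PPM1N, had 8, 5 and 5.

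Applying the same rule to each SMC1 list gave 342 clusters in ICM-treated and 201 in senescent cells, beside the 229 of control. Of the control clusters 158 overlapped an ICM cluster, which is 69.0% of the control and 46.2% of the ICM clusters. An overlap with a senescent cluster was found for 106, which is 46.3% of the control and 52.7% of the senescent clusters, and 93 overlapped clusters of both. In lists of equal length by total signal there were 171, 163 and 201 clusters in control, ICM and senescent cells. The control clusters then overlapped ICM clusters in 50.9% and senescent clusters in 55.0% of cases, so the order of the conditions turned. The number of reads behind each list is not known here.

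Protein-coding genes overlapped 195 of the 229 clusters (85.2%), and 144 (62.9%) held the 5′ end of at least 1. In all, 400 of 19126 autosomal protein-coding genes overlapped a cluster (2.09%), and 290 of the 18787 with a known 5′ end started in one (1.54%). Lists of genes for fibroblast functions were set beside these backgrounds, without a test. As a check of the cell type, 8 of 14 fibroblast marker genes had a control SMC1 peak within 1 kb of their 5′ end. Of 19 markers of other cells (mainly epithelial, endothelial and immune) with a known 5′ end, 1 had such a peak. Among all protein-coding genes 32.5% had one. In the ICM list the fibroblast markers gave 6 of 14 and in the senescent list 4 of 14, against 28.5% and 23.1% of all genes. None of the 20 markers of other cells lay in a cluster, but at the 2.09% of all genes a list this short would hold few or none. Lists of peaks hold no expression.

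Of 19 AP-1 and immediate early genes, which answer growth factors within minutes, 5 lay in clusters (26.3%). FOSL1 had 8 control, 8 ICM and 7 senescent SMC1 peaks in its cluster and FOSB 8, 5 and 5. IER3 had 6, 6 and 3, JUNB 6, 4 and 5, and IER2 5, 5 and 6. The actin cytoskeleton list of 24 genes also held intermediate filament and lamina genes, and 4 of the 24 lay in clusters. The focal adhesion protein PXN had 6, 5 and 3 and the actin cross-linker ACTN1 4, 4 and 3. The intermediate filament protein VIM had 4, 4 and 2, and LMNA of the nuclear lamina was the fourth.

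Extracellular matrix genes in clusters were 3 of 24 (12.5%). Beside COL1A1 these were COL4A2, a chain of basement membrane collagen, with 4, 4 and 2, and SPARC, a collagen-binding glycoprotein, with 4, 4 and 1. The outermost 5′ end of COL4A2 lay outside its cluster. Of 24 genes of the secretory phenotype of senescent cells 3 lay in clusters. IGFBP5, which binds insulin-like growth factors, had 7, 5 and 6, PLAU, which encodes urokinase, had 6, 5 and 3, and INHBA, a subunit of activin, had 4 in each list.

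Of 16 growth factor receptors, both PDGF receptors lay in clusters, PDGFRB with 7, 6 and 8 SMC1 peaks and PDGFRA with 4 in each list. The lung mesenchyme transcription factors gave 2 of 22, TBX2 with 7, 8 and 5 and FOXC2 with 5, 5 and 4. The genes of cell-cycle arrest gave 1 of 14, BBC3, which encodes the pro-apoptotic protein PUMA, with 4, 3 and 5. None of 22 cell cycle and replication genes and none of 13 genes of the cohesin machinery lay in a cluster. As 2.09% of all genes did, lists this short would hold few or none. Control SMC1 peaks still lay no more than 1 kb from the 5′ end of 13 of the 22 and 8 of the 13 genes, against 32.5% of all genes. ICM peaks did so for 9 and 7 genes (28.5% of all genes) and senescent peaks for 7 and 6 (23.1% of all genes).

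**Figure D5:**
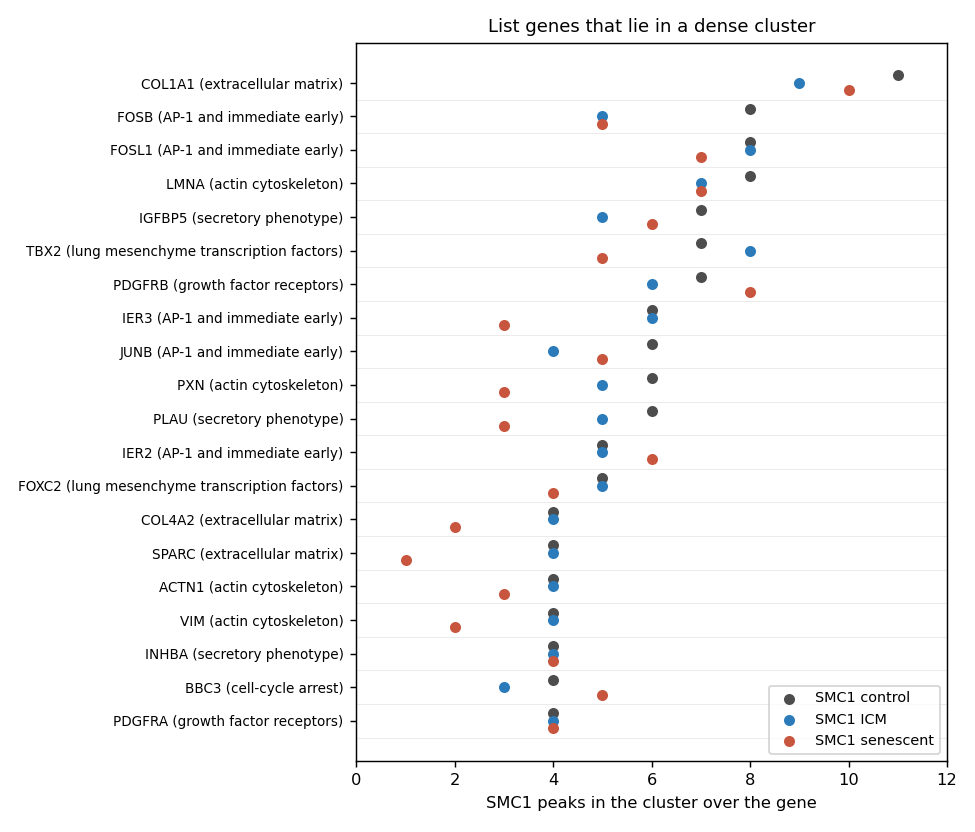
SMC1 peaks in the cluster over each of 20 list genes that lie in one (x axis, number of peaks, control grey, ICM blue and senescent red), with the list in brackets. Control counts chose the clusters. TBX2 has more ICM than control peaks, and BBC3, IER2 and PDGFRB have more senescent than control peaks.

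Hairpins of microRNAs lay in 23 clusters, 30 of 1461 autosomal hairpins (2.05%). MIR21 lay with VMP1 in a cluster with 4 SMC1 peaks and 1 CTCF peak in each list. The neighbours MIR143 and MIR145, known from smooth muscle and fibroblasts, lay in a cluster on chromosome 5 with 5, 6 and 4 SMC1 peaks in control, ICM and senescent cells. MIR193A and MIR365B lay in a cluster of 48247 bp on chromosome 17 with 6, 7 and 6, and MIR132 and MIR212 in one with 7, 8 and 7. These microRNAs were picked after their values were seen.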

How the data were processed

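CUT&Tag libraries of IMR90 were aligned by the authors to hg38 (GRCh38) with Bowtie2 2.3.4.1, and E. coli reads were used for calibration. Peaks were called per library with SEACR 1.3 in stringent mode, keeping the top 1% of regions. The deposited lists give each peak's position, total signal and highest signal (coverage values, whole numbers). No common scale between lists was assumed, signals were ranked within a list, and depth is unknown. The methods name a motif filter for CTCF that was not applied here. The titles with p34 give no treatment, and their libraries were assigned to senescence from the series design.

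Peaks were counted inside a cluster when their summit lay inside. Genes came from RefSeq on GRCh38.p14, with strand from its promoter table or GENCODE symbols. A 5′ end was known for 98.2% of autosomal protein-coding genes and was taken as the outermost base of the gene. Shares carry exact (Clopper-Pearson) 95% intervals (scipy 1.17.1). Named clusters were those with the most control SMC1 peaks (10), the most control CTCF peaks (5), the longest span (5), and the 5 lowest and 5 highest ratios of ICM or senescent to control peaks. The list genes in a cluster were named as well, up to 6 a list. Of these, 1 cluster and its gene are not reported here. The members, lists and rules were chosen with earlier results of these data known. Counting was tested on simulated peaks. Alternatives were other gaps and minimum counts, merged peaks, lists of equal length, stricter lists and other overlap rules.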

Additional observations from a re-analysis of the deposited data

Results flagged for a closer look

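In 21 clusters the ICM and senescent SMC1 counts stood on opposite sides of the control count, with ICM above and senescent below in 15 and the reverse in 6. Of the clusters named in the report 7 belong to them, and they are given here for that reason. ICM minus senescent was 3 at SOCS3 (9 control, 10 ICM and 7 senescent peaks), 3 at TBX2 (7, 8 and 5) and 3 in the cluster over LNCATV on chromosome 1 (5, 7 and 4). It was 2 in the cluster with MIR143 and MIR145 (5, 6 and 4). It was -3 at BCAR1 (6, 5 and 8), -2 at PDGFRB (7, 6 and 8) and -2 at BBC3 (4, 3 and 5). At SOCS3 and in the LNCATV cluster 2 ICM peaks overlapped a single control peak, so part of the higher ICM count was a split peak. Such splits were not counted over all clusters. With 1 library per group the difference was not tested at any of them.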

How the results depend on the processing

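The number of clusters depended on the rule and was 52 with a joining gap of 5 kb, 542 with 25 kb, 682 with a minimum of 3 peaks, 49 with 6, 150 in lists of equal length by highest signal and 120 in stricter lists that keep the upper 75% by total signal. At a gap of 5 kb the share of clusters with 4 or more peaks was 57.7% for ICM and 28.8% for senescent cells, senescent peaks per control peak were 0.675, 38.1% of control peaks were shared with the senescent list, CTCF was present in 63.5%, 73.1% and 63.5% of clusters (control, ICM, senescent), and 0.181% of genes started in a cluster. At 25 kb the shares with 4 or more peaks were 76.4% and 54.1%, and 5.85% of genes started in a cluster. With a minimum of 3 peaks the values were 30.6% and 18.2% with 4 or more, 61.1%, 69.8% and 68.6% with CTCF and 3.74% of genes. With a minimum of 6 they were 100% and 79.6%, 89.8%, 93.9% and 91.8%, and 0.378%, and 39.7% of control peaks were shared with the senescent list. Fewer or more stretches pass such rules by construction.

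In lists of equal length by total signal, ICM peaks per control peak were 0.778, 55.6% of clusters had 4 or more ICM peaks and 55.6% 4 or more senescent peaks, 57.5% of control peaks were shared with the ICM list, CTCF was present in 77.8% of clusters in control and 70.8% in senescent cells, and 1.25% of genes started in a cluster. By highest signal these were 0.768 per control peak, 52.0% and 56.0% with 4 or more, 47.8% shared with the senescent list, CTCF in 72.0% after ICM and 61.3% in senescent cells, and 1.00% of genes. These stricter lists gave 0.846% of genes and merged peaks 1.23%. With whole peaks in place of summit windows, 83.3% and 69.4% of control peaks were shared with the ICM and senescent lists. Merged peaks gave 167 clusters and equal length by total signal 171, less than 1.5 times from 229. The other shares and ratios stayed within the interval of the reported value. The cause of these shifts was not tested. No paired analysis was possible because each group has 1 library and no test was run.

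Depth limits these lists in a way that cannot be measured here, since the number of reads is unknown and each list keeps its own top 1% of regions. The lowest total signal in a list was 3456 in the control, 2455 in the ICM and 2796 in the senescent SMC1 list, and a peak just below it is missing without being absent from the cells. Counts of split or wide peaks depend on the peak caller. Choosing clusters in the control list lowers the counts of the other lists relative to it.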
